A study of Danio rerio with 2 samples.

Results

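Transcripts of the uncoupling proteins and of mitochondrial fatty acid oxidation were examined in whole zebrafish larvae homozygous for lri12, set against their wild-type siblings from the same clutch. Each genotype was 1 library made from 20 pooled larvae at 5 days post-fertilization, when the yolk is nearly used up and the liver and gut are formed. Every difference below is therefore between 2 libraries and has no replicate check, and no test was run. The gene that lri12 affects is not named in the labels, so they could not be checked against it. The genes were chosen by name: ucp1, ucp2, ucp3, cpt1b, cpt2, acadm, acadvl, hadhb and angptl4, 9 symbols in all. They were chosen with earlier results of these data known, so their counts beside all genes are no independent check. In the deposited table of 27458 symbols, 8 of the 9 were found as spelled, and 7 of those 8 had a level that allowed a comparison. The symbol hadhb stands on a short locus listed at 0 in both pools, and angptl4 is present only in capitals. Levels are FPKM, fragments scaled by transcript length and by library size, so that levels of different genes can be set side by side.

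Fatty acids are burnt in mitochondria. They are activated to acyl-CoA, carried across the inner membrane as acylcarnitines by the carnitine palmitoyltransferases, and shortened by the acyl-CoA dehydrogenases and the trifunctional protein, whose electrons enter the respiratory chain. Uncoupling proteins are carriers of the inner membrane. UCP1 lets protons back into the matrix without ATP being made and in mammals produces the heat of brown fat, a tissue that fish lack. In larval fish these pathways draw on yolk lipid first and on food later.

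Of the 7 genes with a usable level, 4 were at least 1.2-fold lower in the mutant pool (ucp1, cpt1b, ucp3 and acadm), 3 differed by less (ucp2, acadvl and cpt2), and 0 were at least 1.2-fold higher. Among the 18664 genes that averaged 1 FPKM or more over both pools, 7.39% were at least 1.2-fold lower and 5.9% at least 1.2-fold higher. Among those averaging 5 FPKM or more, as all 7 do, the lower share was 7.35%. One of the 7 genes, ucp1, was at least 2-fold lower and 0 were at least 2-fold higher, where the shares over all genes were 0.439% and 0.289%. Folds are ratios of mutant to wild-type FPKM after adding 1 to each. The median log2 difference of the 7 genes was -0.30, that of all genes was 0.004, and without ucp1 the median of the remaining genes was -0.14. All 7 genes exceeded 1 FPKM in each pool, so none entered through 1 pool alone.

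**Figure D1:**
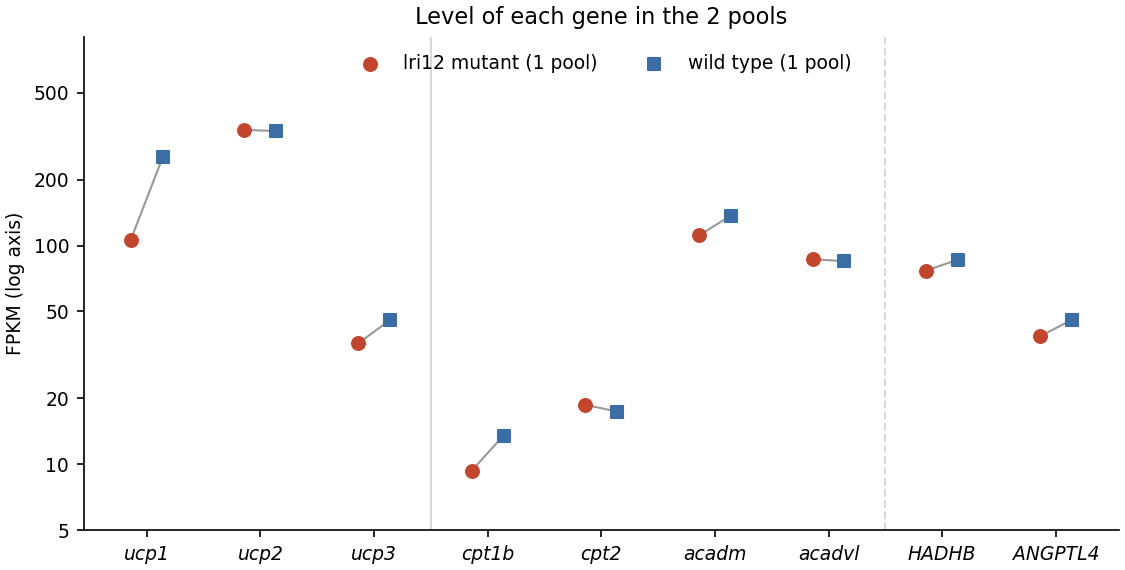
FPKM of each gene (log axis) in the lri12 mutant pool (circles) and the wild-type pool (squares), with uncoupling proteins left of the solid line, genes of the oxidation pathway right of it, and the loci spelled in capitals right of the dashed line. The widest gap is that of ucp1, at 106 FPKM in the mutant and 253 FPKM in wild type, while the points of ucp2, acadvl and cpt2 nearly coincide.

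The gene of uncoupling protein 1, ucp1 (locus XLOC_000600, chromosome 1, 53870144 to 53884605 in build Zv9), stood at 106 FPKM in the mutant pool and at 253 FPKM in the wild-type pool. This is a log2 difference of -1.24, or 2.37-fold lower in the mutant, the 39th lowest of the 18664 genes. Among the 7 genes it had the next level after ucp2 in wild type, and came behind both ucp2 and acadm in the mutant. By level it stood in place 720 of all genes in the mutant and in place 366 in wild type. For this gene the authors' deposited table gives a p of 0.0001 and a q of 0.031. The authors' deposited table has 109 loci below a q of 0.05, of which 73 are lower in the mutant, and ucp1 is 1 of them. Those values come from 1 pool against 1 pool and do not measure variation between pools, larvae or clutches. The next gene on the chromosome, elmod2, an engulfment and motility domain gene, stood at 10.2 FPKM in the mutant and 8.45 FPKM in wild type.

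The paralogs ucp2 and ucp3 lie side by side on chromosome 10. In mammals ucp2 is transcribed in many tissues and ucp3 mainly in skeletal muscle. The gene ucp2 (XLOC_002136, 37906720 to 37926603) had the highest level of the 7 genes in both pools, 338 FPKM in the mutant and 334 FPKM in wild type, a log2 difference of 0.02. Its locus is shared with dnajb13, which was under 1 FPKM in each pool. The gene ucp3 (XLOC_002135, 37894302 to 37900774) stood at 35.7 FPKM in the mutant and 45.6 FPKM in wild type, 1.27-fold lower. The neighbours thus differed from each other, with ucp3 in place 869 and ucp2 in place 10081 from the lowest difference of all genes. The authors' deposited table gives ucp3 a p of 0.155 and ucp2 a p of 0.950, both with a q of 0.999.

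Added together, the 3 uncoupling protein transcripts came to 479.7 FPKM in the mutant and 632 FPKM in wild type. Of that sum, ucp1 made up 22.2% in the mutant and 40.02% in wild type. The share of ucp2 was 70.4% in the mutant and 52.8% in wild type, and that of ucp3 was 7.44% in the mutant and 7.22% in wild type. The ratio of ucp1 to ucp2, which does not depend on how the libraries were scaled, was 0.315 in the mutant and 0.758 in wild type. Over all 7 genes the summed level was lower by 179 FPKM in the mutant (706 FPKM, against 885 FPKM in wild type), and ucp1 accounted for 81.8% of that deficit. The 4 genes of the oxidation pathway alone summed to 226 FPKM in the mutant and 253 FPKM in wild type.

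**Figure D2:**
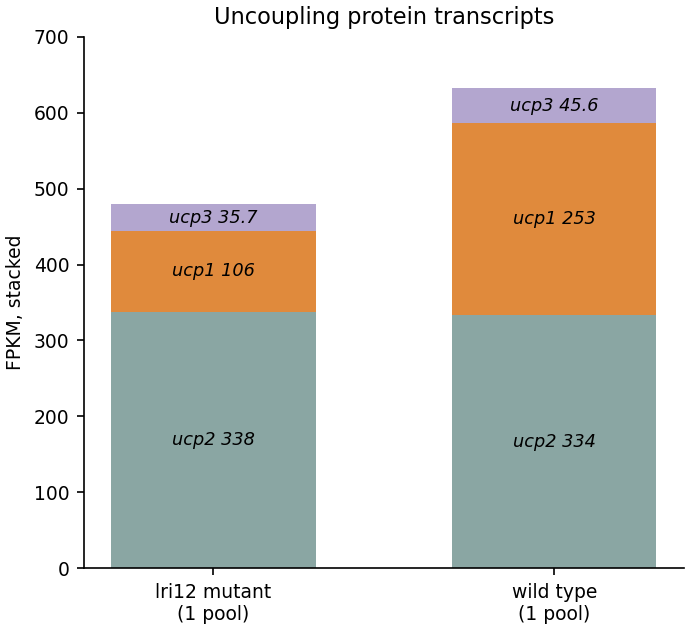
Stacked FPKM of ucp2, ucp1 and ucp3 in the lri12 mutant pool (left bar) and the wild-type pool (right bar), 1 pool each. The ucp2 blocks are of nearly equal height (338 FPKM in the mutant, 334 FPKM in wild type), and the shorter mutant bar comes mostly from the ucp1 block (106 FPKM in the mutant, 253 FPKM in wild type).

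Entry of fatty acids into mitochondria was represented by both carnitine palmitoyltransferases. The gene cpt1b (XLOC_012613, chromosome 18, 7811522 to 7832169) encodes the outer-membrane enzyme that makes acylcarnitine, the rate-limiting step, in the form that mammals use in muscle. It stood at 9.36 FPKM in the mutant and 13.5 FPKM in wild type, 1.40-fold lower, with a log2 difference of -0.49. It was the second lowest of the 7 genes by difference and the lowest by level in both pools. The authors' deposited table gives cpt1b a p of 0.0384 and a q of 0.999. Its chromosomal neighbour sephs1, a selenophosphate synthetase gene, was nearly equal at 15.9 FPKM in the mutant and 15.8 FPKM in wild type.

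The other loci named for the outer-membrane enzyme carry the name of the liver form. CPT1A (1 of 2) on chromosome 25 stood at 25.5 FPKM in the mutant and 26.8 FPKM in wild type. CPT1A (2 of 2) on chromosome 7 stood at 9.57 FPKM in the mutant and 9.62 FPKM in wild type. Both lay within 1.2-fold, so that cpt1b made up 21.1% of the summed level of these loci in the mutant and 27.1% in wild type. The inner-membrane enzyme cpt2, which turns acylcarnitine back into acyl-CoA, was at 18.7 FPKM in the mutant and 17.4 FPKM in wild type, 1.07-fold higher. Its locus (XLOC_036155, chromosome 8, 21675463 to 21891055) is shared with 7 other gene models, so its level depends on how the authors' program assigned reads there. The translocase slc25a20, which exchanges acylcarnitine for carnitine between these enzymes, stood at 46.3 FPKM in the mutant and 53.5 FPKM in wild type, a log2 difference of -0.20.

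The acyl-CoA dehydrogenases begin each round of shortening and differ in the chain length they take. The medium-chain enzyme gene acadm (XLOC_016224, chromosome 2, 26618239 to 26624320) stood at 111 FPKM in the mutant and 137 FPKM in wild type, 1.23-fold lower. The very-long-chain enzyme gene acadvl (XLOC_033550, chromosome 7, 21455928 to 21491112) stood at 86.7 FPKM in the mutant and 84.8 FPKM in wild type, 1.02-fold higher. Of these 2 dehydrogenase genes, acadm was thus lower in the mutant pool, and acadvl was nearly equal in both pools. The authors' deposited table gives acadm a p of 0.262 and acadvl a p of 0.910, each with a q of 0.999. Of related dehydrogenases, the long-chain acadl had a log2 difference of -0.17 (50.2 FPKM in the mutant, 56.4 FPKM in wild type) and the short-chain acads one of -0.22 (21.6 FPKM in the mutant, 25.4 FPKM in wild type). Electrons from these enzymes pass to electron transfer flavoprotein, whose subunit genes were nearly equal, etfa at 128 FPKM in the mutant and 127 FPKM in wild type and etfb at 114 FPKM in the mutant and 112 FPKM in wild type.

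The trifunctional protein carries out the remaining steps for long chains, and hadhb encodes its thiolase subunit. The locus spelled hadhb (XLOC_018123, chromosome 20, 48621120 to 48621490) was listed at 0 in both pools and marked as too low to test, so it gives no comparison. It ends just before the locus of hadhaa, a gene of the partner subunit, and hadhb and hadhaa are also neighbours in the RefSeq annotation of the assembly GRCz12tu. A second locus spelled HADHB, on the unplaced scaffold Zv9_NA706 (845 to 21675), stood at 76.9 FPKM in the mutant and 86.2 FPKM in wild type, 1.12-fold lower. Whether both loci belong to 1 gene was not tested. The partner subunit genes stood at 14.1 FPKM in the mutant and 15.0 FPKM in wild type for hadhaa, and at 39.5 FPKM in the mutant and 38.1 FPKM in wild type for hadhab, all within 1.2-fold.

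The gene angptl4 encodes a secreted protein that inhibits lipoprotein lipase and that fasting and fatty acids induce in mammals. The locus spelled ANGPTL4 (XLOC_016186, chromosome 2, 23321878 to 23327384) stood at 38.4 FPKM in the mutant and 45.7 FPKM in wild type, 1.19-fold lower. It lay just inside the 1.2-fold limit, which acadm at 1.23-fold lay just outside. The lipase itself, lpl, was at 46.6 FPKM in the mutant and 45.4 FPKM in wild type. With both loci in capitals counted as members, 4 of 9 genes were at least 1.2-fold lower and the median log2 difference was -0.25.

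**Figure D3:**
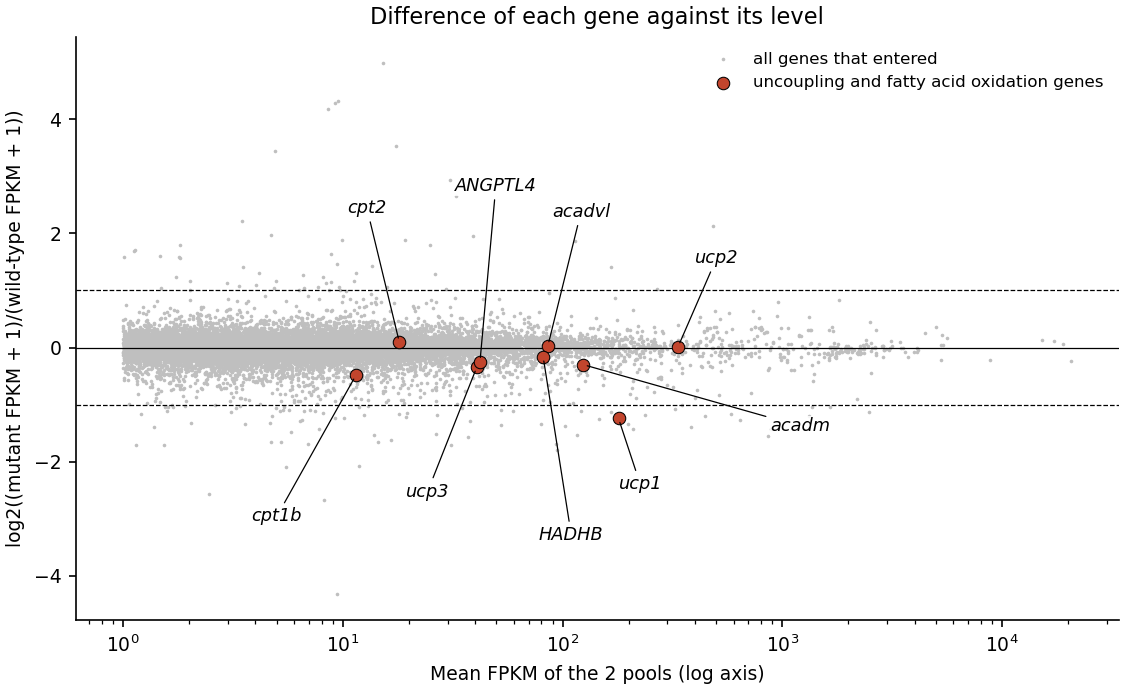
Log2 difference (mutant over wild type, 1 added to each FPKM) against the mean FPKM of both pools (log axis) for all 18664 genes compared (grey) and the genes described here (red). Dashed lines mark 2-fold. The point of ucp1 lies below the lower line at -1.24, and the other named genes lie between -0.49 and 0.10.

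The transcript of ucp1 was among the more abundant ones with a large difference. Of 767 genes at 100 FPKM or more in wild type, a limit chosen after the values were seen, 24 (3.13%) were at least 2-fold lower in the mutant, and ucp1 was the 13th lowest of them. The limit uses the wild-type pool alone, so it lets in genes through the pool where they are high. The share at least 2-fold higher at that level was not counted. At 106 FPKM in the mutant, ucp1 passes the limit in both pools. Of the 3 described genes at that level, ucp2 and acadm were not among the 24. The 24 included 9 of the exocrine pancreas markers listed for this work, 2 hepatocyte markers, 1 enterocyte marker and 1 yolk syncytial layer marker, and 11 genes on none of the marker lists. These 11 include ucp1 and also pancreatic secretory genes that the lists lack, such as ctrl and SYCN (1 of 2). The lowest of the 24 was the amylase amy2a, a pancreas marker, at 41.9 FPKM in the mutant and 148 FPKM in wild type. Next came the drug-metabolizing cytochrome P450 cyp3a65, on none of the lists, at 43.5 FPKM in the mutant and 143 FPKM in wild type. Both amy2a and cyp3a65 passed the limit of 100 FPKM through the wild-type pool alone.

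The wider pathway was read from 8 gene lists, each set beside all genes. Of all genes, 48.7% lay below 0, 7.39% were at least 1.2-fold lower and 5.9% at least 1.2-fold higher. In the carnitine shuttle and fatty acid activation, 3 of 19 genes were at least 1.2-fold lower and 0 at least 1.2-fold higher, with a median of -0.03. The lowest was acsl5, an acyl-CoA synthetase of liver and intestine in mammals, at 21.9 FPKM in the mutant and 39.9 FPKM in wild type, 1.78-fold lower. It was followed by cpt1b and by slc27a2, a very-long-chain acyl-CoA synthetase, 1.21-fold lower. Of the outer-membrane enzyme loci only cpt1b is in this list, as neither CPT1A locus described above was matched to it. The highest were the synthetase genes acsl4l (1.19-fold higher) and acsl4a (14.2 FPKM in the mutant, 12.8 FPKM in wild type), which prefer arachidonate in mammals.

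Mitochondrial beta-oxidation had a share within 1.2-fold close to that of all genes, 86.7%. Of 26 genes, 3 were at least 1.2-fold lower, 0 were at least 1.2-fold higher and 23 differed by less, with a median of -0.10 and 19 genes below 0. The locus HADHB described above is not among the 26, as the list was matched to the locus spelled hadhb, which was too low. The lowest were mlycd, the enzyme that removes malonyl-CoA, the inhibitor of CPT1 (2.38 FPKM in the mutant, 3.38 FPKM in wild type), acad11 (10.1 FPKM in the mutant, 12.8 FPKM in wild type) and acadm. The highest were the thioesterase acot13 at 1.14-fold and the hydroxyacyl-CoA dehydrogenase hsd17b10 at 1.07-fold higher.

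Peroxisomal beta-oxidation, which shortens very long and branched fatty acids before mitochondria take over, held larger differences. Of 20 genes, 5 were at least 1.2-fold lower and 0 at least 1.2-fold higher, with a median of -0.14. The thiolase and sterol carrier gene scp2a stood at 38.4 FPKM in the mutant and 58.5 FPKM in wild type, 1.51-fold lower. The phytanic acid hydroxylase phyh stood at 12.9 FPKM in the mutant and 18.4 FPKM in wild type, 1.39-fold lower. Paralogs did not share these differences: scp2b stood at 0.07 on the log2 scale, and the transporter abcd3b, the highest of the list, was 1.18-fold higher while abcd3a was 1.25-fold lower.

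Ketone body metabolism had 3 of 7 genes at least 1.2-fold lower and 0 at least 1.2-fold higher, with a median of -0.15. Its lowest genes were zgc:123207, matched to the monocarboxylate transporter slc16a7 as a synonym (1.32-fold lower), the ketone-using enzyme oxct1b (26.4 FPKM in the mutant, 35.1 FPKM in wild type) and the locus that joins bdh1 with gygl (1.23-fold lower). Taking the 4 oxidation and ketone lists as 1, 14 of 72 genes (19.4%) were at least 1.2-fold lower, where the share over all genes was 7.39%. Of the 72, 0 were at least 1.2-fold higher and 58 differed by less, and 51 lay below 0. The 72 include the members cpt1b, cpt2, acadm and acadvl. With members left out, 2 of 17 carnitine shuttle and activation genes and 2 of 24 mitochondrial beta-oxidation genes were at least 1.2-fold lower. The peroxisomal and ketone lists hold no members, so their counts of 5 of 20 and 3 of 7 stay the same.

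The nearest mitochondrial carriers differed little in size. Apart from ucp1, ucp2 and ucp3, the list of uncoupling proteins and nearest carriers held 7 genes, with a median of -0.08. All 7 lay below 0 and none passed 1.2-fold. Of all genes, 48.7% lay below 0 and 86.7% were within 1.2-fold. The lowest of the 7 was the ATP/ADP carrier slc25a4, at 641 FPKM in the mutant and 716 FPKM in wild type. The carrier slc25a20, counted in the carnitine shuttle list, had a log2 difference of -0.20. The carriers slc25a14 and slc25a27, which are also called uncoupling proteins of the brain, had log2 differences of -0.07 and -0.16.

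Transcripts of the regulators varied little in size, but 18 of 24 lay below 0, where the share over all genes was 48.7%. Of the 24 genes, 1 was at least 1.2-fold lower and 0 were at least 1.2-fold higher. The lower one was the acetyl-CoA carboxylase acacb (6.42 FPKM in the mutant, 8.43 FPKM in wild type), whose product blocks CPT1. The nuclear receptor pparaa, a main activator of fat-burning genes, stood at 3.92 FPKM in the mutant and 3.85 FPKM in wild type, and its coactivator ppargc1b at 9.62 FPKM in the mutant and 10.2 FPKM in wild type. The fasting hormone gene fgf21 stood at 7.94 FPKM in the mutant and 7.99 FPKM in wild type. The lowest and highest of the list after acacb were klf15, 1.16-fold lower, and the retinoid X receptor rxraa, 1.14-fold higher.

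**Figure D4:**
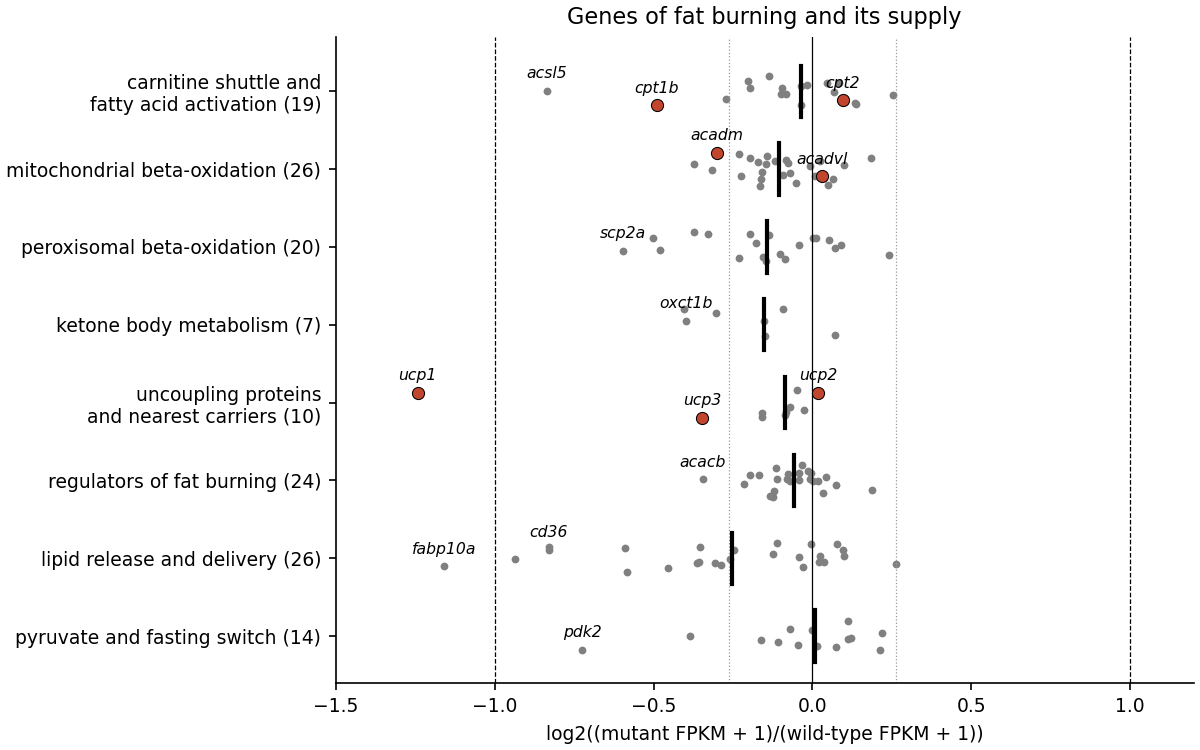
Log2 difference (mutant over wild type, 1 added to each FPKM) of every compared gene in the 8 lists, with their numbers in parentheses. Genes chosen by name and found as spelled are red, other genes including ANGPTL4 are grey, and list medians are black bars. Dotted lines mark 1.2-fold and dashed lines 2-fold. The points of ucp1 and fabp10a lie beyond the lower 2-fold line, and no gene lies beyond the upper one.

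Genes of lipid release and delivery had the lowest median of the 8 lists, -0.25, with 12 of 26 genes at least 1.2-fold lower and 1 at least 1.2-fold higher. One gene passed 2-fold, the liver fatty acid binding protein fabp10a, at 363 FPKM in the mutant and 811 FPKM in wild type. Its relative fabp11a stood at 6.002 FPKM in the mutant and 12.4 FPKM in wild type, and the fatty acid receptor cd36 at 35.3 FPKM in the mutant and 63.5 FPKM in wild type, 1.78-fold lower. Brain fabp7a was the highest, at 548 FPKM in the mutant and 456 FPKM in wild type. Several genes of this list, among them fabp10a, fabp2 and fabp11a, are counted again below as markers of hepatocytes, enterocytes and fat cells. In the list of pyruvate use, which competes with fat for oxidation, the median was 0.01. Of its 14 genes, 2 were at least 1.2-fold lower and 0 at least 1.2-fold higher. The kinase pdk2, which shuts off pyruvate dehydrogenase, stood at 88.4 FPKM in the mutant and 147 FPKM in wild type, 1.65-fold lower. The other gene past 1.2-fold, pdha1b, was 1.31-fold lower (2.56 FPKM in the mutant, 3.64 FPKM in wild type). PDK4 was 1.12-fold lower and PDK1 1.16-fold higher.

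Because whole bodies were sequenced, fewer cells of a type and less RNA per cell cannot be told apart. Markers of several tissues were also lower in the mutant pool, and their part in the difference of ucp1 was not tested. At the 2-fold limit that ucp1 passed, 11 of 16 exocrine pancreas, 4 of 18 hepatocyte and 2 of 15 enterocyte markers were lower. Of the yolk syncytial layer markers 1 of 4 was lower, and of the fat cell and muscle markers 0 were. At that limit 1 hepatocyte and 1 fat cell marker were higher. Over all genes 0.439% were lower and 0.289% higher. At the 1.2-fold limit used for the markers below, 7.39% of all genes were lower and 5.9% higher. Exocrine pancreas markers had 15 of 16 genes at least 1.2-fold lower and summed to 6823 FPKM in the mutant and 15032 FPKM in wild type. Enterocyte markers had 11 of 15 at least 1.2-fold lower and 1 at least 1.2-fold higher, and summed to 3277 FPKM in the mutant and 4317 FPKM in wild type, or to 1522 FPKM in the mutant and 2653 FPKM in wild type without the most abundant, apoa1. Hepatocyte markers had 9 of 18 at least 1.2-fold lower and 1 at least 1.2-fold higher, and summed to 8819 FPKM in the mutant and 9138 FPKM in wild type. Most of that sum is 1 gene, zgc:193613, matched to apoa2 as a synonym and higher in the mutant. Without it, as computed after the values were seen, the other 17 hepatocyte markers summed to 3051 FPKM in the mutant and 4194 FPKM in wild type. The listed hepatocyte symbol apoa1b had no match, so these sums leave it out. A locus named APOA1 (2 of 2), on none of the lists, stood at 2138 FPKM in the mutant and 2922 FPKM in wild type. Whether that locus is apoa1b was not tested. The higher hepatocyte marker, the serpina1 locus without a joined symbol, was listed at 0 in wild type and passed the limit of 1 FPKM through the mutant pool alone, and the lower marker hpx was above 1 FPKM in wild type alone. Fast muscle markers had 2 of 15 genes at least 1.2-fold lower and 2 at least 1.2-fold higher, and summed to 63814 FPKM in the mutant and 60760 FPKM in wild type. Slow muscle markers had 0 of 9 lower and 3 higher, and summed to 496 FPKM in the mutant and 437 FPKM in wild type. Heart muscle markers had 1 of 9 lower and 1 higher, and summed to 319 FPKM in the mutant and 290 FPKM in wild type. Without the most abundant, actc1a, the heart sums were nearly equal, 123.3 FPKM in the mutant and 122.7 FPKM in wild type. With the most abundant gene left out, the exocrine pancreas sum stayed lower in the mutant, and the fast and slow muscle sums stayed higher. Fat cell markers, 1 of 8 lower and 1 higher, summed to 76.2 FPKM in the mutant and 76.3 FPKM in wild type, and the higher one, lepa, was above 1 FPKM in the mutant pool alone. Without the most abundant, cebpa, the fat cell sums were 48.0 FPKM in the mutant and 50.1 FPKM in wild type. Whether larvae of this age hold fat cells was not examined, so these sums are not a measure of fat tissue. Of the yolk syncytial layer markers 4 were measured above 1 FPKM and 2 of them were at least 1.2-fold lower. They summed to 1077 FPKM in the mutant and 1625 FPKM in wild type. The most abundant of them, the apoa4 locus, was at least 1.2-fold lower and is also counted among the enterocyte markers. Without it the yolk layer sums were 552 FPKM in the mutant and 715 FPKM in wild type. Vitellogenin symbols were at or near 0 in both pools.

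**Figure D5:**
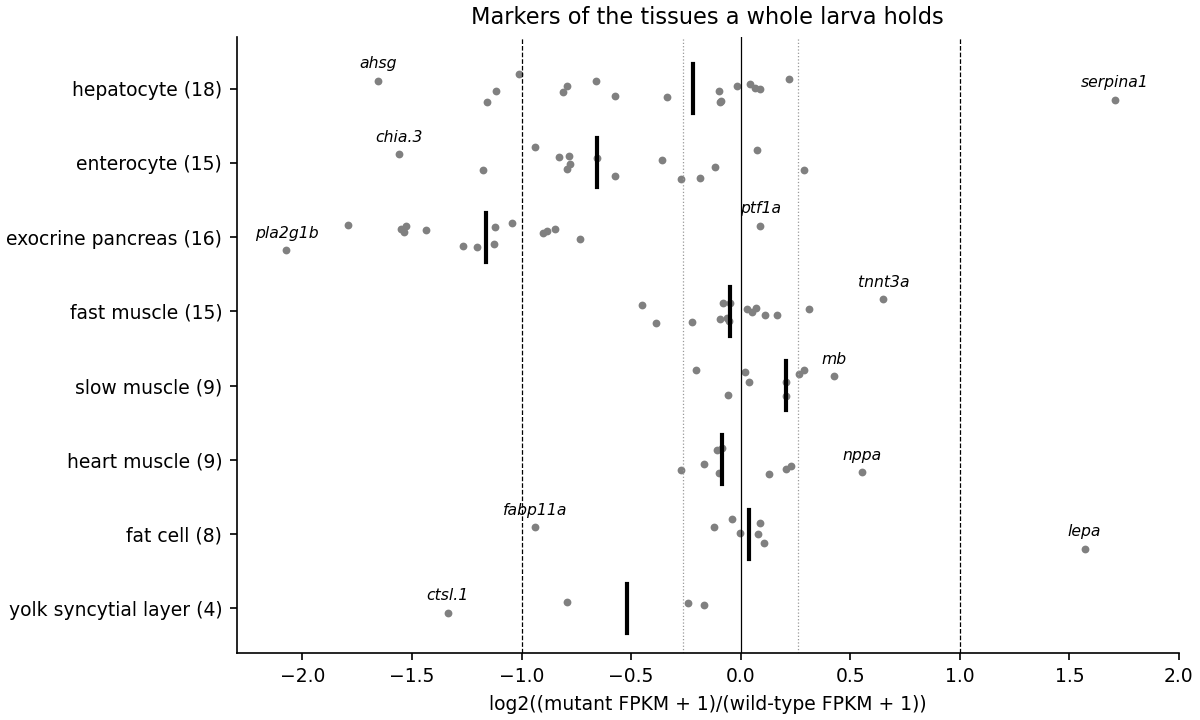
Log2 difference (mutant over wild type, 1 added to each FPKM) of the markers of 8 tissues and cell types, with the number of genes in parentheses and medians as black bars. Dotted lines mark 1.2-fold and dashed lines 2-fold. Markers of exocrine pancreas and enterocytes lie mostly left of the lower 1.2-fold line, and those of fast, slow and heart muscle lie on both sides of 0.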

How the data were processed

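The deposited table lists 40114 loci with 1 value for each of the 2 pools. Its column names are those that Cuffdiff writes, per the file headers, and the deposited values were taken as FPKM, a unit no label states. CASAVA, Bowtie and build Zv9 are named in the submitters' processing notes; the annotation and the handling of strand are not stated there. Each p-value and q-value was computed by the authors from 1 pool against 1 pool, per the file headers. Absolute depth is unknown, so no counting interval is given. Coordinates are as deposited and span whole loci.

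Here 19 failed loci and 8509 loci without a symbol were left out, loci of 1 symbol were summed, and genes averaging 1 FPKM or more were compared as log2((mutant + 1)/(wild type + 1)) with pandas 2.3.3, after the steps were tested on simulated data. Limits of 2-fold and 1.2-fold are rules of size. Of 286 list symbols, 206 matched as written, 29 through RefSeq synonyms (assembly GRCz12tu, names only), 16 in capitals and 35 had no usable match. Genes named were all members, the 3 lowest and 2 highest genes of each pathway list with any past 2-fold, and the extremes and most abundant gene of marker lists where they are discussed; a few genes that this rule names are not reported here. Neighbours, paralogs, partner subunits, regulators, lipase and the abundant genes were chosen after their values were seen. The members and lists were chosen with earlier results of these data known. The 7 other settings planned (a pseudocount of 0.1 or of 5, no filter, a minimum mean of 5 FPKM, a median set to 0, highest locus, tested loci only) and 3 added after seeing the data (symbols in capitals, without ucp1, marker sums without their most abundant gene) are reported beside the results or at the end.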

Additional observations from a re-analysis of the deposited data

How the results depend on the processing

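Under the 7 other settings, 48 of 49 values of single members stayed within 0.1 of the reported log2 difference and 0 changed sign. The exception was cpt1b, at -0.37 with a pseudocount of 5. Most of these values were fixed in advance. No filter, a minimum mean of 5 FPKM, highest locus and tested loci only cannot change the value of a compared member. Setting the median to 0 shifts every gene by the same 0.004. Only the pseudocounts of 0.1 and 5 could move members by differing amounts. For ucp1 the range was -1.25 to -1.21. All 56 medians of the 8 pathway lists stayed within 0.1. The members' median was -0.15 without a filter, where hadhb enters at 0, and -0.14 without ucp1, where 0 members are at least 2-fold lower. Counts over all genes depended by over 1.5 times on how low levels are handled. Adding 5 FPKM in place of 1, 40 genes were at least 2-fold lower and 22 at least 2-fold higher, and 663 and 443 passed 1.2-fold in the same order. Adding 0.1 FPKM, 134 were at least 2-fold lower. Among genes averaging 5 FPKM or more, 33 were at least 2-fold higher, and 806 and 641 were at least 1.2-fold lower and higher; fewer genes enter there. No paired analysis was possible because each genotype is 1 pool. The absence of replicates limits every value, and differences near 1.2-fold, such as those of acadm and ucp3, have no measure of the spread between pools.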

Other observations

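Among the fat cell markers, the leptin gene lepa, a hormone of energy balance made in the liver of fish, stood at 3.22 FPKM in the mutant and 0.422 FPKM in wild type, 2.97-fold higher with 1 added to each value. It was above 1 FPKM in the mutant pool alone and so entered the comparison only through the pool where it is high. The highest slow muscle marker was the oxygen store myoglobin, mb, which stood at 65.3 FPKM in the mutant and 48.5 FPKM in wild type, and the lowest was the slow-muscle troponin tnnt1, at 10.9 FPKM in the mutant and 12.7 FPKM in wild type. Of 9 heart markers 5 lay below 0, and the highest was the natriuretic peptide nppa, which stood at 12.7 FPKM in the mutant and 8.35 FPKM in wild type, 1.47-fold higher. The lowest and the highest of the fast muscle markers were the myosin myhz1.2, at 294 FPKM in the mutant and 402 FPKM in wild type, and the troponin tnnt3a, at 255 FPKM in the mutant and 162 FPKM in wild type. Both belong to families of similar copies, and how reads were divided among them is not known.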
